A study of Canis lupus familiaris with 2 samples.

Results

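The genes described here encode parts of the photoreceptor connecting cilium and the transport machinery that runs through it, and were chosen by name as the transition zone, BBSome, intraflagellar transport and lipidated cargo genes around the SPATA7 complex. The list holds 51 genes in 8 role groups. Of these, 50 were named in the counts of 1 dog, N350, and 45 in those of the other, N354, and the 44 named in both dogs were analysed, out of 15236 gene names that occur in both. All 44 had enough counts to be tested.

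The outer segment of a rod or cone is a modified cilium, joined to the cell body by a narrow connecting cilium that corresponds to the transition zone of other cilia. Proteins of the outer segment pass this gate, and the routes considered here are trains of intraflagellar transport (IFT) particles moved by kinesin-2, the BBSome coat, and carrier proteins that hold lipid-anchored cargo. SPATA7 is a connecting cilium protein that binds RPGRIP1, and defects in many of these genes cause Leber congenital amaurosis, retinitis pigmentosa or syndromes that combine retinal degeneration with disease of the kidney or other ciliated organs.

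Neuroretina was taken as 5 mm punches from 2 male dogs of normal genotype, both 40 weeks old, and dissociated with trypsin and a neural tissue kit. Single cells were profiled in droplets with a kit that reads the 3′ end of each mRNA and marks every molecule with a unique molecular identifier (UMI), so values are counts of molecules and need no division by gene length. With 1 group of 2 dogs, the comparisons are between cell classes within a dog, and no diseased retina enters them. N350 gave 8900 cells and 24030707 UMIs, and N354 gave 4392 cells and 9711202 UMIs, with medians of 1298 and 1204.5 UMIs per cell.

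Cells were assigned to a class from the UMIs of marker genes, none of which is among the 44 genes. A cell that met the limits of 2 or more classes was left out, as were cells that met none, which left 11648 of 13292 cells. N350 held 5508 rods, 267 cones, 297 bipolar cells, 201 amacrine cells, 1185 Müller glia and 76 astrocytes, and N354 held 2994, 166, 220, 31, 503 and 41 in the same order. Many leading genes of a class were its own gate markers, such as *SAG* in rods and *ARR3* in cones, a rank that the gating favoured in advance. Leading genes of both dogs that were not used as markers included *PDE6G* in rods, *LY96* in cones, *SFRP2* in Müller glia and *GNG13* in bipolar cells. Rod markers were also counted in other classes. In Müller glia they stood at 4.66% and 2.76% of their level in rods in N350 and N354. In cones they stood at 6.59% and 3.51%, and in bipolar cells at 7.08% and 2.12%. Whether these UMIs came from free RNA or from joined cells was not tested. The libraries shared 6 cell barcodes. The counts of the dogs were made on different gene annotations, so dog and annotation cannot be told apart.

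The level of a gene is its UMIs per 10000 UMIs of all genes in a class of a dog. Summed over the 44 genes, the level in rods was 109.6 (95% interval 108.8 to 110.4) in N350 and 71.8 (71.0 to 72.7) in N354. Cones followed with 69.4 (68.0 to 70.8) and 45.5 (43.8 to 47.2), bipolar cells with 31.0 and 22.7, and Müller glia with 13.4 and 14.1. Rods stood above cones, and cones above bipolar cells and Müller glia, in each dog, with no overlap of the intervals. Horizontal cells, too few for the tests, summed to 31.5 in N350 and 117.0 in N354, the last above rods, and 82.2 of it was *IFT27*, described at the end. These intervals are exact Poisson intervals and, like all intervals here, cover counting error only. The sum in rods was 8.18 times that in Müller glia in N350 and 5.09 times in N354, a mean log2 ratio of 2.69 ± 0.49 (SD, n = 2 dogs). Cones held 0.633 times the summed level of rods in each dog.

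A large part of that sum was *UNC119*, which encodes a carrier of myristoylated proteins such as rod transducin. It made up 64.2% of the summed UMIs in rods of N350 and 11.7% in rods of N354. Without *UNC119*, the remaining 43 genes summed to 39.2 in rods, 27.9 in cones, 14.8 in bipolar cells and 9.66 in Müller glia of N350, and to 63.4, 41.3, 21.0 and 13.9 in N354. The order of these classes was the same, and the sum in rods was then 4.06 and 4.58 times that in Müller glia. Left without *UNC119*, the dog with the higher level changed from N350 to N354 in rods, cones and bipolar cells.

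**Figure D1:**
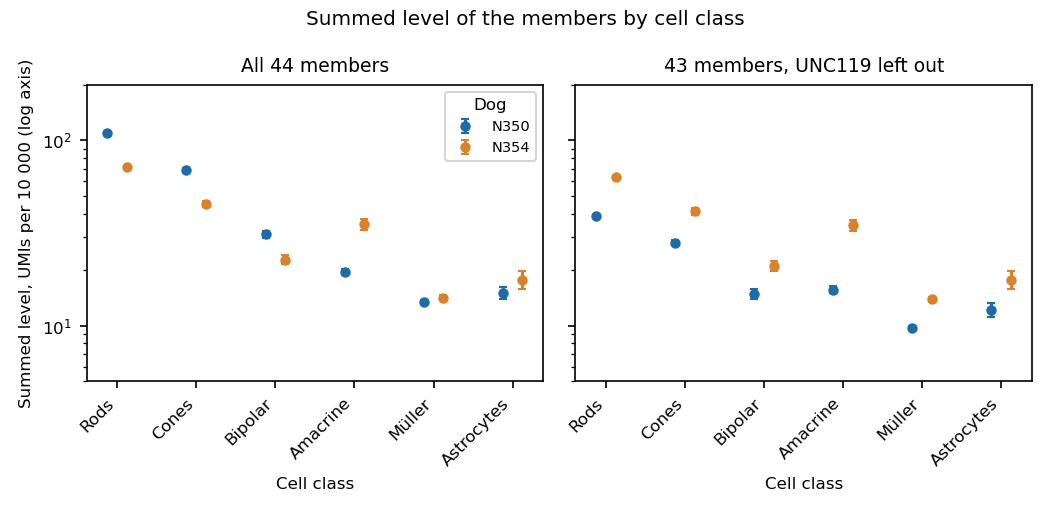
Summed level of the cilium genes in UMIs per 10000 UMIs (log axis) by cell class, for all 44 genes on the left and without UNC119 on the right. Points are dogs and bars are exact Poisson 95% intervals. Of these 6 classes, rods are highest and cones second in each dog and panel. Amacrine cells of N354 sum to 35.1, of which IFT27 is 14.99.

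The same order appeared cell by cell. After thinning every cell to 1000 UMIs, a rod held UMIs of 4.42 of the 44 genes on average in N350 and 5.19 in N354, and a cone held 3.37 and 3.69. Bipolar cells held 2.17 and 2.04, and Müller glia 1.28 and 1.29. Without thinning, cones held more than rods, 9.56 against 4.82 in N350 and 8.40 against 5.61 in N354, and a cone had a median of 5304 and 3382 UMIs against 1044.5 and 1011.5 for a rod. Thinning left out 2537 of 5508 and 1466 of 2994 rods, and 31 of 267 and 55 of 166 cones, which had fewer than 1000 UMIs.

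Of the 44 genes, 24 had their highest level of the 6 classes in rods of both dogs and 4 in cones of both dogs, and 31 were highest in a photoreceptor class in both. Over all 11897 genes tested, 13.5% were highest in rods of both dogs, 5.21% in cones and 21.5% in photoreceptors. The 4 genes highest in cones of both dogs were *CC2D2A*, *ARL3*, *PDE6D* and *IFT81*, of which only *CC2D2A* was called higher in cones than in rods. With horizontal cells added to the classes, *IFT81*, *WDR19* and *MKS1* were highest there in N350, *MKS1* over 10 UMIs. *KIF3A*, *IFT57* and *IFT27* were highest there in both dogs and are described at the end. *TCTN3* was highest there in N354, over 4 UMIs.

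**Figure D2:**
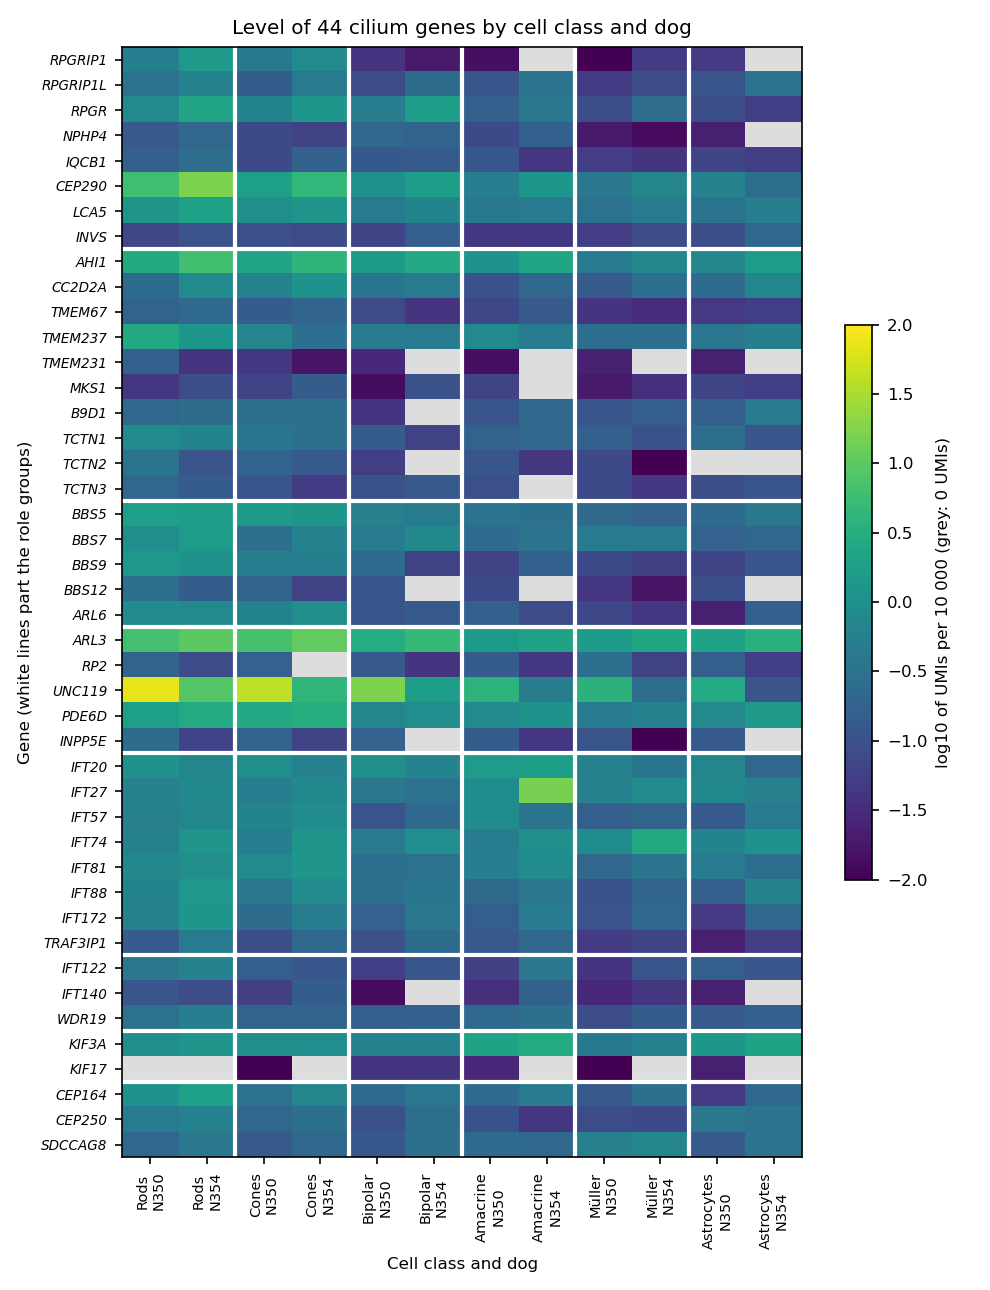
Level of each of the 44 cilium genes (rows, grouped by role) in 6 cell classes of each dog (columns), as the log10 of UMIs per 10000 UMIs, with grey for 0 UMIs. Rods and cones are the brightest columns for most rows, and UNC119, ARL3 and CEP290 are the 3 brightest rows in rods of each dog, while IFT74 and SDCCAG8 are brightest in Müller glia.

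For tests, UMIs were summed per dog and class and compared with the quasi-likelihood test of edgeR, with the dog as a block, because the classes of a dog come from 1 animal. A gene was called at an adjusted p under 0.05 over all 11897 genes. Rods over Müller glia is the broadest contrast: 35 of the 44 genes were higher in rods, 2 were lower and 7 were not called. Of all genes tested, 28.4% were called higher and 28.0% lower. The median log2 fold change was 1.72 for the 44 genes and 0.11 for all genes. For cones over Müller glia, 24 genes were higher, 3 lower and 17 not called, beside 19.3% and 23.5% of all genes, with medians of 1.01 and -0.11. For rods over bipolar cells, 29 were higher, 1 lower and 14 not called, beside 15.2% and 13.2% of all genes, with medians of 1.60 and 0.20. Without the block, 14, 6 and 7 genes were called higher in these 3 comparisons, beside 677, 487 and 291 of all 11897 genes. With the RLE scaling the share of calls that were higher fell for all genes, from 50.4% to 39.7% in rods over Müller glia and from 53.5% to 41.6% in rods over bipolar cells, whereas the median of the 44 genes stood 1.60 and 1.38 above that of all genes.

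A separate list of 46 other genes of the centrosome, axoneme and ciliary transport, of which 45 were tested, gave 29 higher and 7 lower in rods over Müller glia, and 22 higher and 0 lower in rods over bipolar cells. The 7 that were lower were *ANKS6*, *ARL2BP*, *BBIP1*, *CETN3*, *CLUAP1*, *HSPB11* and *TMEM17*. The list includes *SPATA7*, with levels of 0.67 and 1.11 in rods, 0.56 and 0.81 in cones, 0.52 and 0.92 in bipolar cells, and 0.17 and 0.31 in Müller glia of N350 and N354.

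In the connecting cilium and nephronophthisis group, 7 of 8 genes were higher in rods than in Müller glia and 6 of 8 in cones than in Müller glia. Against bipolar cells, 4 of 8 were higher in rods. Of all genes tested, 28.4%, 19.3% and 15.2% were called higher in the same order of comparisons. These shares also stand beside the counts of the groups below. *CEP290*, whose product builds the links between microtubules and membrane in the transition zone, had the highest level of the group in rods and cones. It stood at 5.84 in N350 and 16.3 in N354 in rods, 1.88 and 4.50 in cones, 1.01 and 1.67 in bipolar cells, and 0.39 and 0.67 in Müller glia. Its lowest value in rods was thus above its highest value in cones, bipolar cells and Müller glia. Rods exceeded Müller glia by a log2 fold change of 3.85 ± 0.31 (SE; edgeR adjusted p = 1.47e-08) and bipolar cells by 3.05 ± 0.31 (edgeR adjusted p = 6.41e-07). At 1000 UMIs per cell, 43.1% of rods and 17.3% of cones of N350 held a *CEP290* UMI, and 72.4% and 35.4% in N354, against 4.26% and 5.57% of Müller glia.

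*RPGRIP1*, which encodes a scaffold that anchors RPGR at the connecting cilium and binds SPATA7, had the narrowest distribution of the group. Its level was 0.53 in N350 and 1.41 in N354 in rods and 0.42 and 0.81 in cones, but 0.041 and 0.020 in bipolar cells and 0.0089 and 0.050 in Müller glia. These last values rest on 3, 1, 7 and 15 UMIs. Rods exceeded Müller glia by a log2 fold change of 4.80 ± 0.40 (edgeR adjusted p = 2.23e-08) and bipolar cells by 4.84 ± 0.57 (edgeR adjusted p = 3.41e-06). In Müller glia of N350 and N354 the level was 1.67% and 3.52% of that in rods, beside 4.66% and 2.76% for the rod markers there. In bipolar cells it was 7.74% and 1.39%, beside 7.08% and 2.12% for the rod markers. *RPGRIP1* was thus below the rod markers in 1 dog and above them in the other, in both classes. Horizontal cells of both dogs held 0 UMIs of *RPGRIP1*, which allows up to 3 in each.

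*RPGR*, mutated in X-linked retinitis pigmentosa, was spread further. Its level was 0.81 and 2.21 in rods, 0.64 and 1.26 in cones and 0.50 and 1.71 in bipolar cells of N350 and N354, and bipolar cells of N354 lay above cones of the same dog. Rods exceeded Müller glia, at 0.092 and 0.27, by 2.66 ± 0.25 (edgeR adjusted p = 7.39e-08), and the difference from bipolar cells of 0.62 ± 0.25 was not called (edgeR adjusted p = 0.071). The call over Müller glia was lost without the block. *NPHP4*, which encodes a nephronophthisis protein of the transition zone, was also spread to bipolar cells, with 0.13 and 0.21 in rods, 0.21 and 0.20 in bipolar cells and 0.019 and 0.013 in Müller glia. Its difference between rods and bipolar cells was -0.17 ± 0.43 (edgeR adjusted p = 0.82).

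*LCA5*, which encodes lebercilin of the ciliary axoneme, stood at 1.16 and 1.88 in rods, 0.996 and 1.16 in cones and 0.32 and 0.46 in Müller glia. Rods exceeded Müller glia by 1.51 ± 0.21 (edgeR adjusted p = 7.05e-06). *IQCB1*, which encodes a partner of CEP290, was low throughout, with 0.17 and 0.28 in rods and 0.079 and 0.17 in cones. It was higher in rods than in Müller glia by 1.71 ± 0.38 (edgeR adjusted p = 9.58e-04) and was not called in cones over Müller glia (0.76 ± 0.49, edgeR adjusted p = 0.23). The call in rods was lost without the block and with cells under 5% of UMIs on names starting with MT-. *INVS* was the gene of this group that was not called in any comparison, with log2 fold changes between -0.17 and 0.11.

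Of the 10 Meckel and tectonic genes, whose products form the membrane part of the transition zone, 8 were higher in rods than in Müller glia and 7 higher in rods than in bipolar cells. *AHI1*, mutated in Joubert syndrome, had the highest level of the group in rods and cones of both dogs, with 2.74 and 6.12 in rods and 2.15 and 3.96 in cones. Müller glia held 0.46 and 0.72, and rods exceeded them by 2.40 ± 0.20 (edgeR adjusted p = 2.23e-08). *TCTN1*, a tectonic, was at 0.84 and 0.64 in rods, 0.35 and 0.30 in cones, 0.15 and 0.059 in bipolar cells and 0.17 and 0.10 in Müller glia. Bipolar cells and Müller glia of both dogs lay below cones of both dogs.

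*TMEM237* was highest in rods of both dogs. Its level was 2.69 in N350 and 1.28 in N354 in rods, and 0.65 and 0.29 in cones, 0.43 and 0.43 in bipolar cells and 0.28 and 0.29 in Müller glia. Amacrine cells, at 30.7% and 33.7% of the rod level, lay above cones at 24.2% and 22.3%. Rods exceeded Müller glia by 2.33 ± 0.29 (edgeR adjusted p = 2.71e-06), whereas cones and Müller glia differed by 0.29 ± 0.33 (edgeR adjusted p = 0.51). *CC2D2A*, which encodes a transition zone protein, took the opposite course. It stood at 0.56 and 1.11 in cones, 0.26 and 0.78 in rods, 0.36 and 0.45 in bipolar cells and 0.14 and 0.29 in Müller glia, and was higher in cones than in rods in each dog.

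The group of the BBSome, its chaperonins and ARL6 had 5 genes analysed, *BBS5*, *BBS7*, *BBS9*, *BBS12* and *ARL6*. All 5 were higher in rods than in Müller glia and in rods than in bipolar cells. *BBS5*, *BBS7* and *BBS9* encode subunits of the BBSome coat. *BBS5* stood at 1.83 and 1.67 in rods, 1.42 and 1.33 in cones and 0.24 and 0.18 in Müller glia, a log2 fold change of 2.63 ± 0.21 for rods over Müller glia (edgeR adjusted p = 1.48e-08). *BBS9* stood at 1.35 and 1.09 in rods, 0.53 and 0.54 in cones and 0.078 and 0.056 in Müller glia, with 3.74 ± 0.32 (edgeR adjusted p = 2.61e-08). *BBS7* differed from these, since Müller glia at 0.47 and 0.46 overlapped cones at 0.30 and 0.60. Its difference was 0.95 ± 0.23 for rods over Müller glia (edgeR adjusted p = 0.00176) and -0.62 ± 0.27 for cones over Müller glia (edgeR adjusted p = 0.069). The first call was lost without the block, with DESeq2 and with cells under 5% of UMIs on names starting with MT-. A call in the second was gained with the stricter gate.

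In the lipidated cargo group, the GTPase ARL3 releases cargo inside the cilium from its carriers, UNC119 for myristoylated and PDE6D for prenylated proteins. *ARL3* had 6.47 and 9.88 in rods, 6.84 and 10.9 in cones, 2.99 and 4.80 in bipolar cells and 1.53 and 2.33 in Müller glia of N350 and N354. *PDE6D* had 1.86 and 2.77 in rods, 2.56 and 3.14 in cones, 0.68 and 0.90 in bipolar cells and 0.45 and 0.57 in Müller glia. Both were higher in rods than in Müller glia, by 1.65 ± 0.20 (edgeR adjusted p = 1.44e-06) for *ARL3* and 1.73 ± 0.20 (edgeR adjusted p = 7.91e-07) for *PDE6D*. Neither was called between cones and rods in edgeR, whereas DESeq2 called *PDE6D* higher in cones (0.52 ± 0.17, adjusted p = 0.0156).

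*UNC119* had the highest level of all 44 genes in rods of N350, at 70.4, against 8.40 in rods of N354. The same gap ran through the other classes, with 41.5 and 4.15 in cones, 16.3 and 1.73 in bipolar cells and 3.73 and 0.27 in Müller glia, so that N354 held 0.0719 to 0.119 times the level of N350 in these 4 classes. Within each dog the order of the classes was the same. Rods exceeded Müller glia by 4.15 ± 0.26 (edgeR adjusted p = 2.07e-09), and bipolar cells by 2.33 ± 0.24 (edgeR adjusted p = 7.39e-07). Both calls were lost without the block. The level in Müller glia was 5.30% and 3.19% of that in rods, close to the 4.66% and 2.76% of the rod markers there, whereas bipolar cells held 23.1% and 20.6% against 7.08% and 2.12%. The part of free RNA and of the annotations in these values was not tested.

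*RP2*, which encodes the protein that switches ARL3 off, and *INPP5E*, which encodes a prenylated phosphatase of cilia, were low. *RP2* was lower in cones than in Müller glia (-1.27 ± 0.45, edgeR adjusted p = 0.0314) but had 25 and 0 UMIs in cones of N350 and N354. Neither DESeq2 nor edgeR without the block made this call. *INPP5E* was higher in rods than in Müller glia (1.15 ± 0.42, edgeR adjusted p = 0.0261), with levels of 0.26 and 0.065 in rods. That call was lost without the block, with DESeq2, with RLE and with cells under 5% of UMIs on names starting with MT-.

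**Figure D3:**
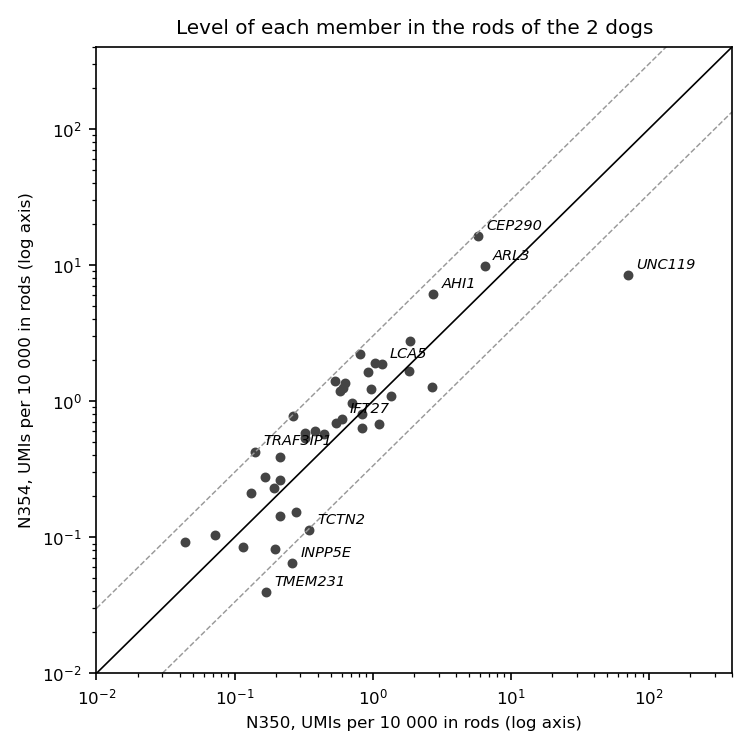
Level of each cilium gene in rods of N350 (x axis) and N354 (y axis), in UMIs per 10000 UMIs on log axes, for genes with UMIs in both. The solid line marks equal levels and the dashed lines a ratio of 3 between the dogs. UNC119 lies far below the line at 70.4 against 8.40, while CEP290 lies above it at 5.84 against 16.3.

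Of the 44 genes, 5 differed by over 3 times between the dogs in rods, *UNC119*, *TMEM231*, *TCTN2*, *INPP5E* and *TRAF3IP1*. This is 11.4% of the genes, beside 27.1% of the 10116 genes tested that had at least 10 UMIs in rods. *TRAF3IP1* was higher in N354 and the other 4 in N350.

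Of the 8 genes of the IFT-B train, which carries cargo towards the tip, 6 were higher in rods than in Müller glia and 1 was lower. The summed level of the train in rods was 4.93 and 7.29, against 2.65 and 4.86 in Müller glia, a ratio of 1.67 as the mean of the dogs. The same ratio was 4.63 for the IFT-A train, 2.49 for the basal body group and 11.2 for the connecting cilium group, and the differences between groups were not tested. Most of the connecting cilium sum in rods was *CEP290*, with 3876 of 6003 UMIs in N350 and 5783 of 8150 in N354. *IFT172* stood at 0.61 and 1.25 in rods, 0.26 and 0.47 in cones and 0.11 and 0.23 in Müller glia, with rods over Müller glia at 2.06 ± 0.23 (edgeR adjusted p = 8.48e-07). The call of *IFT172* was lost without the block. *IFT20*, at 1.12 and 0.68 in rods and 0.55 and 0.36 in Müller glia, was higher in rods by 0.54 ± 0.22 (edgeR adjusted p = 0.0427). Of the 8 alternative settings, only the stricter gate kept this call. *IFT20* had its highest level in amacrine cells, at 1.58 and 1.68.

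*IFT74* ran against its group. Müller glia held 0.88 in N350 and 2.64 in N354, rods 0.58 and 1.18 and cones 0.53 and 1.19, so Müller glia were the highest of the 6 classes in each dog. Rods were below Müller glia by a log2 fold change of -1.33 ± 0.21 (edgeR adjusted p = 4.00e-05) and cones by -1.41 ± 0.23 (edgeR adjusted p = 7.24e-05). *SDCCAG8*, which encodes a centrosomal protein also listed as a Bardet-Biedl gene, behaved alike, with 0.56 and 0.66 in Müller glia, 0.21 and 0.39 in rods and 0.14 and 0.22 in cones. Its log2 fold change was -1.50 ± 0.26 for rods (edgeR adjusted p = 9.20e-05) and -2.26 ± 0.33 for cones over Müller glia (edgeR adjusted p = 1.97e-05). These 2 genes were lower than in Müller glia in rods and in cones. Both calls in rods were lost without the block, where 14 of the 37 calls were kept. They were also lost with cells under 5% of UMIs on names starting with MT-, where 24 were kept. In cones over Müller glia without the block, the call of *IFT74* was lost and that of *SDCCAG8* was kept.

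The IFT-A train carries cargo back to the base, and 2 of its 3 genes were higher in rods than in Müller glia. *IFT122* stood at 0.38 and 0.60 in rods and 0.040 and 0.11 in Müller glia, and *WDR19* at 0.32 and 0.54 and at 0.087 and 0.15, differences of 2.41 ± 0.37 (edgeR adjusted p = 3.01e-05) and 1.46 ± 0.27 (edgeR adjusted p = 1.71e-04). Both calls were lost without the block, and that of *WDR19* also with cells under 5% of UMIs on names starting with MT-. *IFT140*, at 0.12 and 0.084 in rods, was not called in that comparison (1.17 ± 0.51, edgeR adjusted p = 0.062), but was called higher in rods with the stricter gate and with either limit on mitochondrial UMIs. No IFT-A gene was called in cones over Müller glia, where edgeR also gave 0 of 3 genes at an unadjusted p under 0.05.

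At the basal body, *CEP164*, which encodes a distal appendage protein, had 1.04 and 1.92 in rods, 0.32 and 0.67 in cones and 0.13 and 0.28 in Müller glia. *CEP250*, which encodes a linker between centrioles, had 0.44 and 0.57, 0.22 and 0.30, and 0.084 and 0.076 in the same classes. Both were higher in rods than in Müller glia, by 2.43 ± 0.22 (edgeR adjusted p = 7.53e-08) and 2.18 ± 0.31 (edgeR adjusted p = 1.17e-05).

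Cones over rods asks whether the photoreceptor classes differ in these genes. In all, 11 of the 44 genes were lower in cones, 1 was higher and 32 were not called, beside 10.5% of all genes called lower and 8.54% called higher. The median log2 fold change was -0.59 for the 44 genes and -0.32 for all genes. Of the 45 genes tested from the separate cilium list, 9 were lower and 1 higher in cones, with a median of -0.56. The 11 genes came from 7 of the 8 role groups: *CEP290*, *TMEM237* and *TCTN1* of the transition zone, *BBS7* and *BBS9*, *UNC119*, *IFT172*, *IFT122* and *WDR19* of the IFT trains, and *CEP164* and *CEP250* of the basal body. Of the 44 genes, 30 were lower in cones than in rods in both dogs, 7 were higher in both and 6 went opposite ways, and *KIF17* had no UMIs in rods. All genes leaned the same way: in the fit, 4116 of 11897 genes had a log2 fold change above 0, beside 9 of the 44.

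*TMEM237* had the largest difference among those called, at -2.03 ± 0.31 (edgeR adjusted p = 1.25e-04), with rods at 2.69 and 1.28 and cones at 0.65 and 0.29. *CEP290* followed at -1.78 ± 0.29 (edgeR adjusted p = 2.22e-04). Its level in cones was 32.2% of that in rods in N350 and 27.6% in N354. *IFT122* was at -1.64 ± 0.42 (edgeR adjusted p = 0.0103), but with 22 and 7 UMIs in cones. *CEP164* was at -1.63 ± 0.24 (edgeR adjusted p = 7.73e-05), *BBS7* at -1.57 ± 0.26 (edgeR adjusted p = 2.91e-04) and *IFT172* at -1.32 ± 0.25 (edgeR adjusted p = 0.0011). The other 5, *BBS9*, *TCTN1*, *WDR19*, *CEP250* and *UNC119*, lay between -1.23 and -0.91.

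*CC2D2A* was the 1 gene called higher in cones, at 0.76 ± 0.26 (edgeR adjusted p = 0.0463), with cones at 0.56 and 1.11 and rods at 0.26 and 0.78. This call was lost without the block, and also with cells limited to at most 10% of mitochondrial UMIs (0.67 ± 0.30, edgeR adjusted p = 0.12). The Leber congenital amaurosis and SPATA7 complex genes other than *CEP290* were not called between cones and rods in the main fit. Their log2 fold changes were -0.59 ± 0.32 for *RPGRIP1*, -0.59 ± 0.24 for *RPGR*, -0.47 ± 0.21 for *LCA5*, -1.13 ± 0.47 for *NPHP4* and -0.95 ± 0.44 for *IQCB1*, with edgeR adjusted p between 0.095 and 0.22. With cells limited to at most 10% of mitochondrial UMIs, *RPGR* was called lower in cones (-0.88 ± 0.28, edgeR adjusted p = 0.0231). *SPATA7* itself was at -0.38 ± 0.22 (edgeR adjusted p = 0.25). A test that misses the threshold does not show that levels are equal. *ARL3* and *PDE6D*, the cargo genes with the highest level in cones, were at 0.10 ± 0.19 and 0.30 ± 0.19 (edgeR adjusted p = 0.76 and 0.296).

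**Figure D4:**
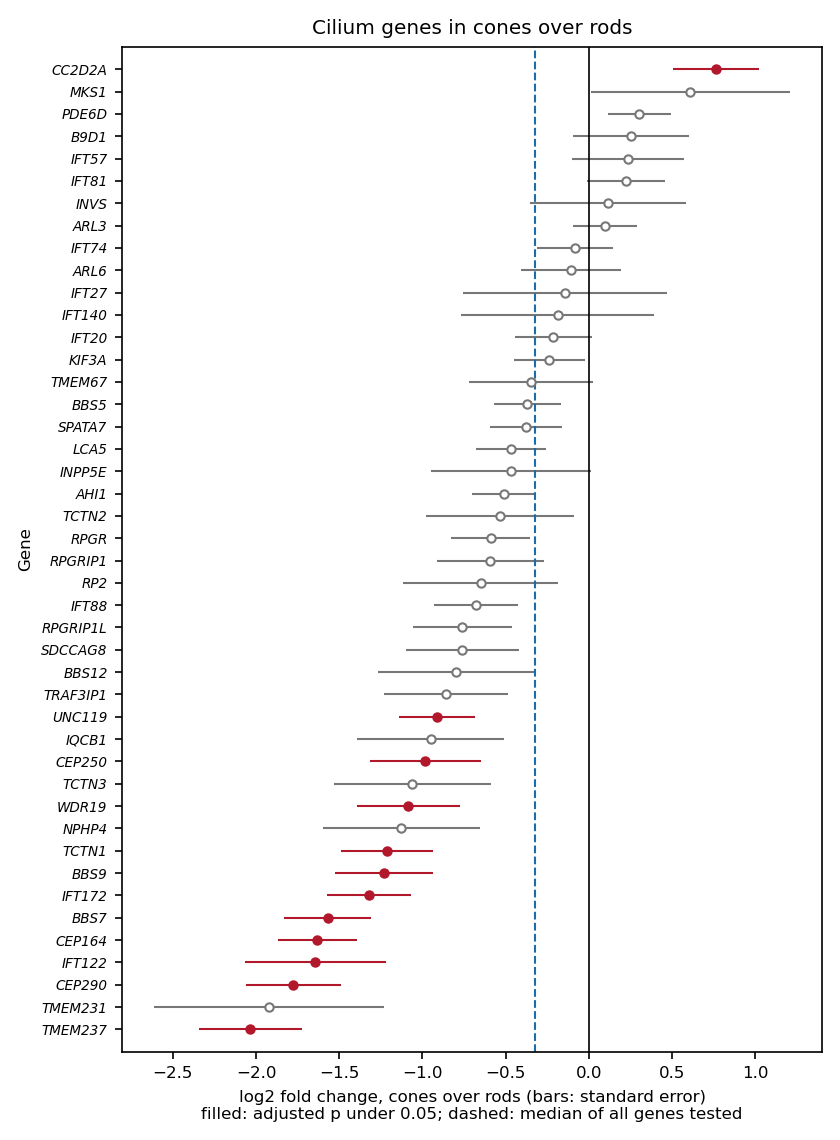
Log2 fold change of cones over rods for 43 of the 44 cilium genes and for SPATA7, with standard errors as bars. KIF17, with 1 UMI in both classes together, is left out. Filled red points are genes with an adjusted p under 0.05, and the dashed line is the median of all genes tested at -0.32. The 11 filled points on the left run from TMEM237 at -2.03 to UNC119 at -0.91, and the single filled point on the right is CC2D2A at 0.76.

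The scale of the comparison between cones and rods depended on the normalization. The median of all genes moved from -0.32 to -0.12 with RLE scaling, and of all genes called, the share higher in cones moved from 44.9% to 61.1%, and to 67.4% with DESeq2. Relative to the median of all genes, that of the 44 genes stood at -0.27 with the main scaling, at -0.25 with RLE and at -0.36 with DESeq2. With RLE, 10 of the 12 calls were kept, without *CEP250* and *WDR19*, and with DESeq2 7 were kept, namely *BBS7*, *CC2D2A*, *CEP164*, *CEP290*, *IFT172*, *TCTN1* and *TMEM237*, and *PDE6D* was added. Without the block for the dog no gene of the 44 was called in edgeR, beside 166 of all 11897 genes. At an unadjusted p under 0.05 in edgeR, 5 of the 44 were lower, beside 1272 of all 11897 genes in either direction. Cones also had more mitochondrial UMIs than rods, with medians of 7.71% against 5.35% in N350 and 11.7% against 6.15% in N354, and 11 of the 12 calls were kept when mitochondrial genes were left out, without *CEP250*, and 11 when only cells with at most 10% of mitochondrial UMIs were used, without *CC2D2A* and with *RPGR* added.

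Kinesin-2 pulls the IFT-B trains. *KIF3A*, which encodes a subunit of the main motor, stood at 0.98 and 1.24 in rods, 0.93 and 0.92 in cones and 0.41 and 0.59 in Müller glia. Amacrine cells were the highest of the 6 classes in both dogs, at 210% and 226% of rods, and astrocytes stood at 136% and 168%. *KIF3A* was higher in rods than in Müller glia by 0.72 ± 0.20 (edgeR adjusted p = 0.00603). That call was lost without the block, with the RLE scaling and with cells under 5% of UMIs on names starting with MT-. *KIF17*, the accessory kinesin-2 motor, was almost undetected. Rods held 0 UMIs in both dogs, which allows up to 3 UMIs, or a level of 0.00452 in N350 and 0.00845 in N354, and cones held 1 and 0 UMIs. Bipolar cells held 3 and 2 UMIs. It was called lower in rods than in bipolar cells (edgeR adjusted p = 0.00507), a call that rests on these 5 UMIs. Neither DESeq2 nor edgeR without the block made it.

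Horizontal cells were too few for the test, with 85 cells in N350 and 15 in N354, yet they held the highest levels of *KIF3A* and *IFT57* of 7 classes in both dogs. *KIF3A* stood at 8.14 (907 UMIs) in N350 and 10.3 (185 UMIs) in N354, which was 8.34 times (95% exact interval 7.53 to 9.24) and 8.30 times (6.95 to 9.88) the level in rods. *IFT57*, of the IFT-B train, stood at 4.42 (493 UMIs) and 5.94 (107 UMIs), or 8.10 times (7.05 to 9.30) and 8.57 times (6.76 to 10.8) the level in rods. Against amacrine cells, the other lateral interneurons, *KIF3A* was 3.97 and 3.67 times and *IFT57* 4.93 and 17.2 times as high, the last over 8 UMIs in amacrine cells. With 1 value per dog, these ratios have no test.

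*IFT27* also had its highest level in horizontal cells, but the dogs did not match. N354 held 82.2 (1481 UMIs) in horizontal cells and 14.99 (348 UMIs) in amacrine cells, whereas N350 held 1.13 (126 UMIs) and 0.90 (124 UMIs). In rods, cones, bipolar cells and Müller glia the dogs were close, with 0.60 and 0.74 in rods and 0.60 and 0.82 in Müller glia. *PVALB*, which encodes the calcium-binding protein parvalbumin, is the gene next to *IFT27* in the RefSeq annotation of the dog assembly UU_Cfam_GSD_1.0. Its name was matched in the counts of N350 and not in those of N354. In N350 its levels were 67.1 in horizontal cells, 9.03 in amacrine cells, 1.12 in rods and between 0.14 and 0.40 in the other classes. Whether reads of *PVALB* were counted as *IFT27* in N354 was not tested. The standard error of *IFT27* was 0.55 to 0.71 in the 4 comparisons and it was called in none.

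**Figure D5:**
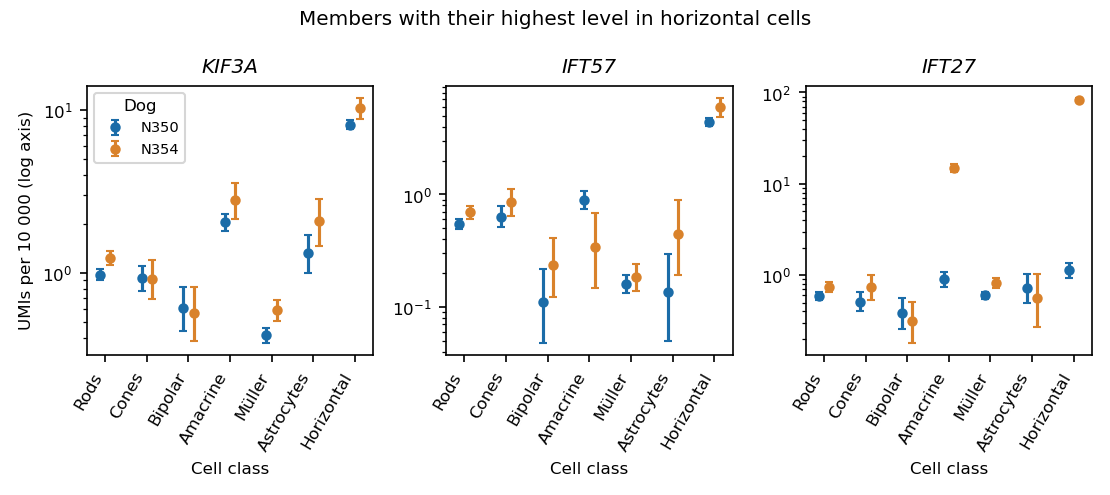
Level of KIF3A, IFT57 and IFT27 in UMIs per 10000 UMIs (log axes, a separate scale for each gene) in 7 cell classes of each dog, with exact Poisson 95% intervals. KIF3A and IFT57 are highest in horizontal cells of both dogs, at 8.14 and 10.3 and at 4.42 and 5.94, while IFT27 is at 1.13 in N350 and 82.2 in N354.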

How the data were processed

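Dissociated neuroretina of 2 normal dogs was sequenced with a droplet 3′ kit. The authors deposited UMI counts for each cell, made with Cell Ranger 6.0.2 per the file headers and not normalized, and the study names canFam6 as the genome. The gene annotations, which differ between the dogs, are not given in the sources used here. Genes were matched by name, with 12 mitochondrial names of N354 rewritten to match.

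Cells with at least 200 genes were gated in each dog on UMIs of fixed markers, with limits set on the marker UMIs. No doublet caller was run, and cells that passed 2 or more gates (4.84% and 5.85%) were left out. No mitochondrial limit was set in the main analysis.

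UMIs were summed per dog and class for the 6 classes with at least 20 cells in each dog (12 sums). Genes with at least 10 UMIs over the sums were tested with the quasi-likelihood test of edgeR 4.0.16 (R 4.3.3), TMM normalization, the dog as a block and Benjamini-Hochberg adjustment. Deviations from the class means correlated between the classes of a dog at 0.556 to 0.812. The block was set because the classes of a dog come from 1 animal, but these correlations cannot tell animal and annotation apart. DESeq2 1.42.0 was an alternative. Tested on simulated data for cones over rods with 200 genes raised in cones, edgeR recovered 27.5% at a log2 fold change of 1 and 96.0% at 2, with 3 and 6 false calls. The raised genes were drawn from those with more UMIs than the test required, and all other genes had the same profile in every class of a dog. Genes lower in cones, changed genes with few UMIs and broad differences between classes were not simulated, so these rates may not hold for the calls here. Shares, sums and intervals used Python 3.11.15 and scipy 1.17.1. A count of 0 allows up to 3 counts.

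Genes given with values are the Leber congenital amaurosis and SPATA7 complex genes, the 3 genes of each role group with the most UMIs and those called in cones over rods, and *INVS*, *RP2*, *INPP5E*, *IFT57*, *PVALB* and the short lists of up to 7 names were picked once their values had been seen. The genes and lists were chosen with earlier results of these data known.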

Additional observations from a re-analysis of the deposited data

Results flagged for a closer look

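Genes of the list that were named in the counts of 1 dog alone stayed out of the comparisons, but held UMIs in the 6 classes. In N350 these were 1291 UMIs of *BBS4*, 658 of *BBS2*, 558 of *B9D2*, 553 of *IFT80*, 518 of *KIF3B* and 196 of *BBS1*, and in N354 159 UMIs of *BBS10*. *BBS4* stood at 1.17 UMIs per 10000 in rods, 0.95 in cones, 0.45 in bipolar cells and 0.29 in Müller glia of N350. *B9D2* stood at 0.55, 0.45, 0.069 and 0.10 in the same classes, *KIF3B*, the partner of KIF3A, at 0.48 in rods, 0.47 in cones and 0.097 in Müller glia, and *BBS1* at 0.23, 0.10 and 0.026. *BBS2* was highest in astrocytes at 0.78, with 0.43 in rods and 0.31 in Müller glia, and *BBS10* of N354 was at 0.23 in rods and 0.39 in astrocytes, the last over 7 UMIs. With 1 dog each, none of these values has a replicate.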

How the results depend on the processing

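The dog as a block carried most calls. With no replicate block, the counts of genes called higher and lower were 0 and 0 in cones over rods (0 and 5 at an unadjusted p under 0.05 in edgeR), 14 and 0 in rods over Müller glia (25 and 1 unadjusted), 6 and 1 in cones over Müller glia, and 7 and 0 in rods over bipolar cells (23 and 1 unadjusted). Of all 11897 genes, 115 and 51, 677 and 1037, 487 and 810, and 291 and 372 were called higher and lower without the block, in the same order. At an unadjusted p under 0.05 in edgeR without the block, 1272 of all genes passed in either direction in cones over rods. In rods over Müller glia 3572 passed, and in rods over bipolar cells 2079. DESeq2 called 2 genes higher (*CC2D2A* and *PDE6D*) and 6 lower in cones over rods, and 0 lower in rods over bipolar cells (1 unadjusted). With cells of at most 10% mitochondrial UMIs, 0 genes were higher in cones over rods in edgeR (1 unadjusted), and with cells under 5% on names starting with MT-, which mostly removes cells of N354, 0 were lower in rods over Müller glia (0 unadjusted). The other counts under the 8 alternatives were within 1.5 times the main count. The mean log2 ratio of the summed genes in cones over rods was -0.60 per UMIs of nuclear genes named in both dogs, -0.66 with cells up to 10% mitochondrial, -0.69 with a stricter gate, -0.67 without the 5% of cells with the most UMIs and -0.55 without *UNC119*. For rods over Müller glia it was 2.11 without *UNC119*, and for rods over bipolar cells 1.56 per nuclear UMIs and 1.504 without *UNC119*. Leaving out each dog gave -0.66 in cones over rods, 2.35 to 3.03 in rods over Müller glia, 1.69 to 2.37 in cones over Müller glia and 1.66 to 1.82 in rods over bipolar cells.

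Of 777 values of the 28 named genes under these alternatives, 672 kept their direction and their side of the threshold, 88 lost and 6 gained a call, and 11 changed sign, all in cones over rods and for genes not called. *IFT27* was at 0.076 with DESeq2, 0.069 with RLE, 0.065 with the 10% limit and 0.012 with the stricter gate, *IFT74* at 0.14 with DESeq2 and with RLE, 0.042 without a filter on low counts and 0.051 without mitochondrial genes, and *IFT140* at 0.065 with DESeq2 and 0.025 with RLE and with the stricter gate. The causes were not tested.

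No test was possible with 1 dog left out, since no residual degrees of freedom remain, or for cones and bipolar cells under the 5% limit and bipolar cells under the 10% limit, which left fewer than 20 cells of N354. Depth limits the rarest genes, such as *KIF17* with 14 UMIs in the gated cells. In the RefSeq annotation, 22 of the 44 genes overlap another gene, *CEP290* and *RPGRIP1* among them, and how the authors' counting treated such reads is not given in the sources used here.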
